A study of Mus musculus with 12 samples.

Results

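The second 12 h of the response of mouse dendritic cells (DC) to poly(I:C) were described by setting the arrays of 24 h against the arrays of 12 h, paired by experiment. The comparison held 4 of the 12 arrays of the series, 2 at each time, and all 45037 non-control probe sets of the Affymetrix Mouse 430 2.0 array. At every time the cells were DC grown from the femur and tibia marrow of C57BL/6 mice over 6 days in GM-CSF at 10 ng/ml, then given poly(I:C) at 2.5 µg/ml for 24 h, for 12 h, or for 0 h, the last being the baseline before treatment. The labels state an age of 3-4 months in one field and 8-10 weeks in another, and the study's methods state higher concentrations of both GM-CSF and poly(I:C) than the labels. Each experiment used the marrow of 1 mouse and was run apart from the other, and the methods describe selection of CD11c+ cells. No array held cells kept without poly(I:C) for 12 h or 24 h, so poly(I:C) and time in culture cannot be told apart in any difference below. Values were MAS5.0 signals on a linear scale, and wherever a pair of values is given, experiment 1 comes before experiment 2.

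Poly(I:C) is a synthetic double-stranded RNA that cells sense as they would a replicating virus, through TLR3 in endosomes and through RIG-I-like helicases such as MDA5 (encoded by Ifih1) in the cytosol. Both routes activate NF-kB and interferon regulatory factors, which switch on inflammatory cytokines, chemokines and interferon beta. Secreted type I interferon then acts back on the cells and raises the interferon-stimulated genes, while inhibitors such as A20, IkB proteins and SOCS1 limit the signal. Over the same period DC mature: they stop taking up antigen, load MHC molecules, raise co-stimulatory molecules and gain the receptors with which they move to lymph nodes.

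The arrays were alike in scale. At 24 h the median signals were 73.3 and 71.1, against 77.1 and 72.6 at 12 h, and they lay between 70.9 and 91.4 over all 12 arrays. Between 19.5% and 23.1% of the signals of an array lay below 16. The summed signal of 9 DC markers was 63864 and 78569 at 24 h, against 70180 and 76122 at 12 h. Nearly all of it came from Itgax, H2-Ab1 and Cd74. Itgax (CD11c) alone gave 16176 and 22648 at 24 h, against 19303 and 24684 at 12 h. The other DC markers were weak. Zbtb46 had 165 and 318 at 24 h, against 318 and 321 at 12 h. Ciita had 228 and 151 at 24 h, against 565 and 260 at 12 h. Kmo had 60.5 and 142 at 24 h, against 154 and 152 at 12 h. Flt3, Cd209a and Dpp4 were below 100 at both times. The sums of 9 macrophage markers were as large as those of the DC markers, with 70230 and 77596 at 24 h, against 74132 and 79599 at 12 h. Sums for T and NK cells (171 to 288 over the 4 arrays) and for B cells (131 to 281) were low, whereas neutrophil markers summed to 1870 and 3851 at 24 h, against 2576 and 3482 at 12 h, and rested on S100a8. Red cell and platelet markers summed to 20966 and 29078 at 24 h, against 20905 and 33621 at 12 h, nearly all of it Pf4. Within the macrophage markers, C1qb had 1299 and 2020 at 24 h, against 4546 and 1496 at 12 h, opposite ways in the paired experiments. Sums for mast cells, basophils and eosinophils (471 to 679) and for stromal cells (285 to 506) were low. The part that cell composition played in the differences below was not tested, and with bulk RNA fewer cells of a type and less RNA per cell cannot be told apart.

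Of 22519 probe sets bright enough to test, 421 (1.87%) were higher and 507 (2.25%) lower at 24 h than at 12 h (limma on log2(signal + 16) with the experiment as a block, Benjamini-Hochberg adjusted p under 0.05, n = 2 experiments). At an unadjusted p under 0.05 the numbers were 2642 and 2274. All 928 called probe sets moved the same way in both experiments, which the test itself favours. Over all tested probe sets the agreement was loose: the differences of experiment 1 and experiment 2 correlated at r = 0.232 over probe sets, a description since genes are not replicates, and had the same sign for 57.9%. The median difference was 0.03 on the log2 scale, and the median standard error (SE) of a difference was 0.29.

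The size of the called set rested on the design. With no replicate block the same fit called 0 probe sets, with a smallest adjusted p of 0.0706 by limma, although 1416 were higher and 1180 lower at an unadjusted p under 0.05. The arrays of 12 h mattered most: without the 12 h array of experiment 1, 21 probe sets were called, and 18 of them were among the 928. Leaving out the 12 h array of experiment 2 gave 165 calls, of which 137 were shared. Leaving out any 1 of the 8 arrays of 0, 1, 3 and 6 h gave 255 to 420 calls. Dropping a 24 h array instead raised the number, to 4186 calls (experiment 1 dropped) and 3307 calls (experiment 2 dropped), fits in which the lone array is assumed to vary like the other times. In none of these fits was a probe set called in the opposite direction. Of the 92 called genes named in the text, 84 lost their call when the 12 h array of experiment 1 was dropped and 63 when that of experiment 2 was, and the arrays on which a call rested are given below for the genes described most fully.

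**Figure D1:**
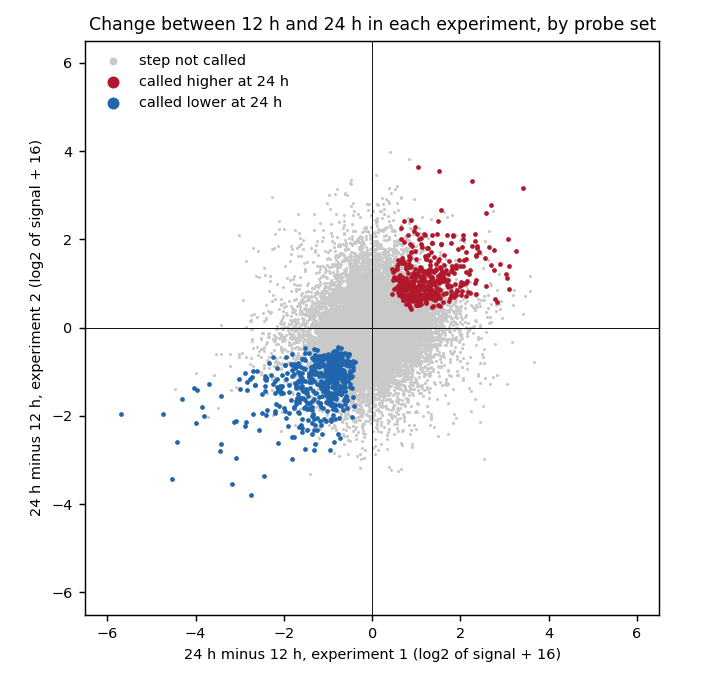
Difference between 24 h and 12 h (log2 of signal + 16) for each tested probe set, in experiment 1 on the x axis and in experiment 2 on the y axis; grey points were not called, and coloured points were called higher (421) or lower (507). Called probe sets lie in the quadrants where both experiments moved the same way. Over all tested probe sets, grey and coloured together, the differences of the 2 experiments correlated loosely (r = 0.232).

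At the level of genes, with the brightest tested probe set standing for each of 10985 genes, 282 (2.57%) were higher and 243 (2.21%) lower at 24 h than at 12 h. Each was classed by what it had done before. A waning rise was called higher at 12 h than at 0 h and then lower at 24 h than at 12 h, and a recovering fall was the reverse. A new rise or fall was not called at 1, 3, 6 or 12 h, stayed within 2-fold of 0 h at those times, and was called at 24 h against both 12 h and 0 h. There were 109 waning rises, 149 recovering falls, 77 new rises and 89 new falls, with 19 rises and 19 falls that went further and 37 higher and 26 lower genes of no such pattern. Only 1 gene had probe sets called both ways. Of all 10985 genes, 1171 were higher and 2263 lower than 0 h at 12 h. At 24 h, 1259 were higher and 1887 lower than 0 h.

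Most probe sets called at 12 h against 0 h were not called between 24 h and 12 h. At 12 h, 2098 probe sets (9.32%) were higher and 4205 (18.7%) lower than at 0 h, and at 24 h the numbers were 2078 (9.23%) and 3933 (17.5%). Of the 2098 that had risen, 212 (10.1%) were lower at 24 h than at 12 h, 29 (1.38%) were higher and 1857 were neither. Of the 4205 that had fallen, 223 (5.30%) were higher at 24 h, 42 (0.999%) were lower and 3940 were neither. These counts use the 12 h arrays in both contrasts with opposite sign, which by itself favours an apparent return. Changes called at 6 h against 0 h compare the means of other arrays, although the error estimate of each probe set is shared by all contrasts of the fit, so that the calls at 6 h and between 24 h and 12 h are not independent. Of the 815 probe sets (3.62% of those tested) already higher at 6 h, 136 (16.7%) were lower at 24 h than at 12 h and 8 were higher, and of the 438 (1.95%) already lower at 6 h, 55 (12.6%) were higher at 24 h and 3 were lower. Both shares stood above the 2.25% and 1.87% over all tested probe sets.

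**Figure D2:**
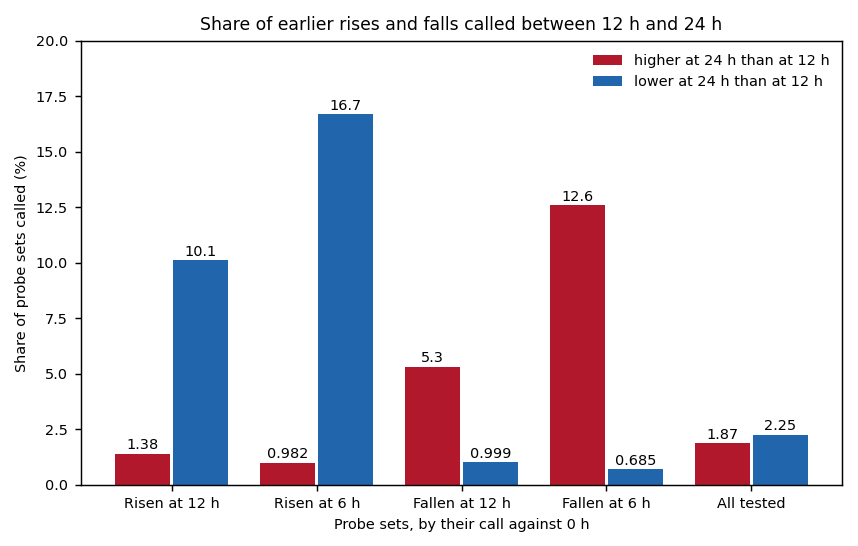
What became of probe sets called against 0 h at 12 h and at 6 h when 24 h was set against 12 h; bars give the percent of each starting set that was then higher or lower, and the last pair gives the percent over all tested probe sets. Of rises called at 6 h, 16.7% were lower at 24 h than at 12 h, and of falls called at 6 h, 12.6% were higher.

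The sizes of the called returns follow. Large returns, little change left and an extreme mean at 12 h follow in part from the definition of the classes. The 12 h arrays also serve both contrasts with opposite sign. Waning rises had a median signal of 1615 at 24 h against 4259 at 12 h, with 1244 at 0 h, and kept a median of 13.6% of their log2 change at 12 h. Of the 109, 65 were not called against 0 h at 24 h, 29 were still above it and 15 had dropped below it. Their highest mean was at 12 h for 87, at 6 h for 11, at 3 h for 5 and at 1 h for 6. Recovering falls had a median of 786 at 24 h against 362 at 12 h, with 935 at 0 h, and kept 7.81% of their change. Of the 149, 129 were not called against 0 h at 24 h, and the lowest mean was at 12 h for 145. Changes called at 12 h against 0 h whose difference between 24 h and 12 h was not called are termed held. The term means the absence of a call and does not show that nothing changed. Choosing genes without a called difference also favours a large part kept. The 1043 held rises kept a median of 89.0% of the change at 12 h, and 761 were called against 0 h at 24 h. The 2095 held falls kept 76.1%, and 1222 were called against 0 h at 24 h.

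Cytokines and interferons were among the genes that waned most. Of 18 inflammatory cytokine genes tested, 7 (38.9%) were lower at 24 h than at 12 h and none was higher, against 2.21% lower over all genes tested. The median difference of the 18 was -1.15 on the log2 scale, against 0.07 over all genes. That median was -1.12 in experiment 1 and -0.31 in experiment 2. It was -0.36 without the 24 h array of experiment 1 and -0.38 over the 15 genes passing a filter at the 75th percentile, and the 7 calls dropped to 2 without the 12 h array of experiment 1 and to 4 without that of experiment 2. The 7 were Ifna4, Ifnb1, Tnf, Il6, Il1a, Il1b and Tnfsf9. Tnf, the central early inflammatory cytokine, had signals of 772 and 350.4 at 24 h, against 7155 and 4239 at 12 h, with 3221 and 2715 at 0 h. Both 24 h arrays lay far below both 12 h arrays and also below both 0 h arrays. The fall was 10.3-fold, with a log2 difference of -3.36 ± 0.24 (SE; adjusted p = 0.000762, limma), and 24 h was below 0 h by a log2 difference of -2.47 ± 0.24.

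Il6, an NF-kB-driven cytokine that acts on B cells, T cells and liver, had signals of 410.3 and 183 at 24 h, against 6798 and 878 at 12 h, with 49.9 and 5.23 at 0 h. The groups did not overlap, but the 12 h level of experiment 1 was several times that of experiment 2. The log2 difference was -3.08 ± 0.40 (adjusted p = 0.00622, limma), and at 24 h Il6 still stood above 0 h by 2.96. The interleukin 1 genes, which drive fever and local inflammation, fell below their own starting level. Il1a had 745 and 1021 at 24 h, against 8201 and 6396 at 12 h, with 1499 and 2023 at 0 h, and Il1b had 985 and 2072 at 24 h, against 10693 and 6133 at 12 h, with 2912 and 2783 at 0 h. For both genes every 24 h array lay below every 12 h and every 0 h array. The log2 differences from 12 h were -3.03 ± 0.27 for Il1a and -2.49 ± 0.33 for Il1b. The calls of Il6 and Il1b were lost without the 12 h array of experiment 1, and those of Tnf and Il1a under no left-out array.

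Interferon genes fell furthest. Ifna4, one of the interferon alpha genes, had signals of 3.81 and 19.9 at 24 h, against 443 and 369 at 12 h, with 4.95 and 3.42 at 0 h. The 24 h arrays were back in the range of signals below or near 16, where 19.5% to 23.1% of the signals of an array lie. The log2 difference was -3.98 ± 0.59 (adjusted p = 0.0106, limma), which understates the ratio of such low signals because 16 was added, and the interferon alpha genes are near-identical copies, so the probe set may read several of them. Ifnb1, encoding interferon beta, had 86.1 and 842 at 24 h, against 5290 and 3322 at 12 h, with 32.6 and 48.4 at 0 h. Experiment 1 dropped much further than experiment 2, by -5.70 against -1.96 on the log2 scale. The fitted difference was -3.83 ± 0.89 (adjusted p = 0.0426, limma), and this call was lost when any 1 of the 10 arrays of 0 to 12 h was left out, whereas that of Ifna4 was lost without either 12 h array.

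**Figure D3:**
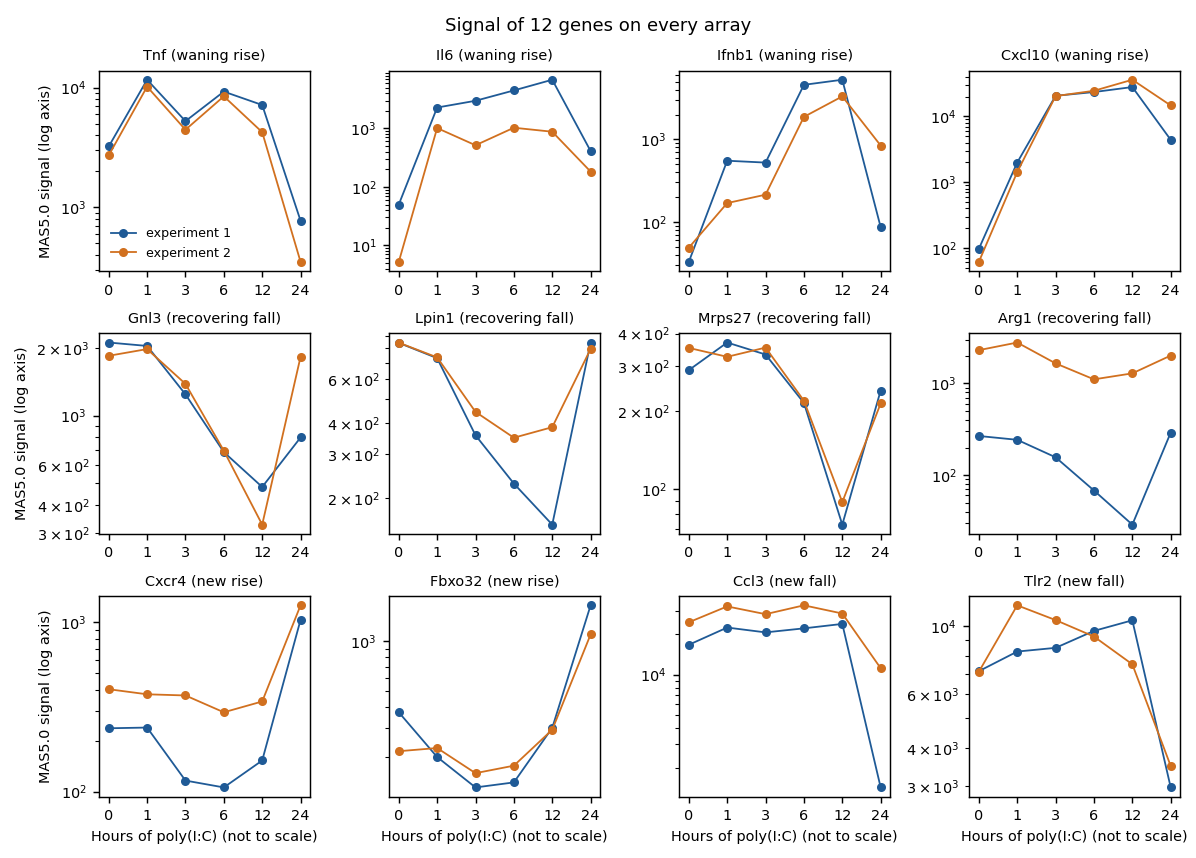
Signals (log scale) of 12 genes before and up to 24 h after poly(I:C), with 1 line for each experiment. Tnf, Il6, Ifnb1 and Cxcl10 waned after 12 h, Gnl3, Lpin1, Mrps27 and Arg1 recovered, Cxcr4 and Fbxo32 rose only after 12 h, and Ccl3 and Tlr2 fell only after 12 h.

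Further genes among the largest waning rises act on vessels, clotting and microRNA control. F3, tissue factor, the starter of clotting, had 257 and 808 at 24 h, against 2953 and 5661 at 12 h, with 1597 and 3554 at 0 h. Edn1, encoding the vasoconstrictor endothelin 1, had 622 and 150.2 at 24 h, against 5414 and 1266 at 12 h, with 1211 and 608 at 0 h. Mir155hg, the host transcript of the inflammatory microRNA miR-155, had 243 and 24.8 at 24 h, against 1730 and 545 at 12 h, with 202 and 32.2 at 0 h. F3 and Edn1 ended below the 0 h level of their own experiment in both experiments, and Mir155hg ended close to it. The fitted log2 differences were -3.11 ± 0.23, -3.02 ± 0.30 and -3.27 ± 0.26, and each call held under every left-out array. Ptgs2, the inducible cyclooxygenase of prostaglandin synthesis, fell by 3.35 ± 0.65 on the log2 scale, yet its 12 h signals were 6260 in experiment 1 and 342 in experiment 2, and its 24 h signals 219 and 76.0. Only 1 of its 2 probe sets was called. Ch25h, which makes the antiviral oxysterol 25-hydroxycholesterol, fell by 2.51 ± 0.29.

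Chemokines gave 5 calls, all lower. Of 18 tested, 5 (27.8%, against 2.21% over all genes tested) were lower at 24 h than at 12 h. None was higher, and 17 had a difference below 0 (median -1.12), against 4813 of 10985 over all genes tested. Without the 12 h array of experiment 1 none of the 18 was called, and without that of experiment 2 only 1 was. Cxcl10, an interferon-induced attractant of T cells, had 4405 and 14678 at 24 h, against 27950 and 36110 at 12 h, with 96.8 and 61.3 at 0 h. Both 24 h arrays were below both 12 h arrays and far above both 0 h arrays. The log2 difference from 12 h was -1.98 ± 0.43 (adjusted p = 0.0366, limma; lost when any 1 of the 10 arrays of 0 to 12 h was left out), and 24 h still exceeded 0 h by 6.43. Ccl3 and Ccl4, attractants of monocytes and T cells, were already bright at 0 h and fell only after 12 h. Ccl3 had 1431 and 11163 at 24 h, against 23925 and 28620 at 12 h, with 16705 and 24610 at 0 h, and Ccl4 had 800.2 and 6014 at 24 h, against 10523 and 14633 at 12 h. Both genes dropped far more in experiment 1 than in experiment 2. The log2 differences were -2.70 ± 0.52 and -2.49 ± 0.50, with adjusted p = 0.0258 and 0.0293 by limma, and both calls were lost without either 12 h array, either 6 h array or the 3 h array of experiment 2. That of Ccl4 was also lost without the 3 h array of experiment 1 or either 0 h array. Cxcl2, a neutrophil attractant, had 444 and 186 at 24 h, against 6469 and 798 at 12 h, and Ccl2, a monocyte attractant, had 8173 and 5280 at 24 h, against 15212 and 18948 at 12 h. Ccl5 and Cxcl9 were not called, with differences of -0.06 ± 0.36 and -0.18 ± 0.78.

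The promoters of 3 waning genes linked to interferon (Cxcl10, Ifna4 and Socs1), and of Il6, are printed to show the motifs searched in the whole class (300-base promoters of RefSeq, GRCm38.p6). Capitals mark the matches. For Cxcl10 (chr5:92348840-92349139, minus strand), Ifna4 (chr4:88841566-88841865, plus strand) and Socs1 (chr16:10785487-10785786, minus strand), they mark GAAANNGAA, part of the interferon-stimulated element, which occurs once in Cxcl10 and as an overlapping pair in Socs1; for Il6 (chr5:30012864-30013163, plus strand), they mark GGGNNTTTC, part of the NF-kB site.
Cxcl10: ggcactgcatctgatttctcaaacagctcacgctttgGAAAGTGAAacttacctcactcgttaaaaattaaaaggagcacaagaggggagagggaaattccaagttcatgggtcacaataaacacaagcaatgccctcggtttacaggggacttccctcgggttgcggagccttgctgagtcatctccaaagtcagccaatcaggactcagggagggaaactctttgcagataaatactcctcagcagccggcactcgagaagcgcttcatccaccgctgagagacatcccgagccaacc
Ifna4: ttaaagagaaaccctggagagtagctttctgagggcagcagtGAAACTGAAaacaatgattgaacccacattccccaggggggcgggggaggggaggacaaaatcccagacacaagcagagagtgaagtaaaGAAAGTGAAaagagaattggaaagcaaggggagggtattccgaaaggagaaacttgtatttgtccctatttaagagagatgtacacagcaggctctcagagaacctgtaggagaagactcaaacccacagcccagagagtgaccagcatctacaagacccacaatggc
Socs1: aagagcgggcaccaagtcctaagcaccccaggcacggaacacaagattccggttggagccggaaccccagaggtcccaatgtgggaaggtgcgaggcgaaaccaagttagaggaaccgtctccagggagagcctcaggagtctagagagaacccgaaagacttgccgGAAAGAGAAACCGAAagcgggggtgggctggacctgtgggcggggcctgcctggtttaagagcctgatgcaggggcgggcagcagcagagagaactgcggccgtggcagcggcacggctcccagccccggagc
Il6: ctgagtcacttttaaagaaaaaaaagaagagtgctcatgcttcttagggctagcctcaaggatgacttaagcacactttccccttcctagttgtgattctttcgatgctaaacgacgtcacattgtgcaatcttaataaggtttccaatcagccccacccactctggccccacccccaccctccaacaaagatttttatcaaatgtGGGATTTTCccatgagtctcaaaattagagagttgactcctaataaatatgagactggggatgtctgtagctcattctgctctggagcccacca
Both strands were searched. GAAANNGAA was in 18 of 112 promoters of waning rises (16.1%), in 13.1% of 1127 promoters of held rises and in 7.15% of 11539 promoters of all genes tested. GGGNNTTTC was in 7.14% of the promoters of waning rises, in 6.12% of those of held rises and in 4.30% of all. TGATGNAA, an ATF4 and CHOP composite, was in 7.14% of waning rises, 3.19% of held rises and 2.24% of all. The other motifs searched, in waning rises against all, were CACGTG (8.93% against 9.91%), TGACGTCA (3.57% against 2.98%), TCACNCCAC (0.893% against 1.13%) and TTTNNCGC (3.57% against 8.21%). Promoters were at hand for 444 of the 525 called genes. A match describes the letters and is not a binding site.

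Of 23 NF-kB pathway genes, 4 (17.4%, against 2.21% over all genes tested) were lower at 24 h than at 12 h, and none was higher. Without the 12 h array of experiment 1, 1 was lower, and without that of experiment 2, 3 were. The median difference was -0.63 in experiment 1 and -0.02 in experiment 2. Nfkbiz, encoding IkB-zeta, the nuclear partner needed for secondary NF-kB targets such as Il6, had 189 and 59.7 at 24 h, against 1201 and 364 at 12 h, with 376 and 205 at 0 h. Its 24 h level lay below 12 h and 0 h in both experiments, with a log2 difference from 12 h of -2.45 ± 0.22 (adjusted p = 0.00185, limma), and all 3 of its probe sets were called. Tnfaip3, encoding the ubiquitin-editing inhibitor A20, had 5435 and 6237 at 24 h, against 12643 and 10122 at 12 h, with 4570 and 4287 at 0 h. Nfkbie (IkB-epsilon) fell by 1.33 ± 0.19 and Tank, an adaptor of the TBK1 kinase, by 1.17 ± 0.27 (adjusted p = 0.0426, limma; lost when any array but the 24 h array of experiment 2 was left out).

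Of 20 feedback inhibitors of cytokine signaling, 2 were lower (10.0%, against 2.21% over all genes tested), and none was called without either 12 h array. Socs1, which blocks JAK kinases downstream of interferon receptors, had 972 and 562 at 24 h, against 2440 and 2402 at 12 h, with 274 and 473 at 0 h. All 24 h signals were below all 12 h signals and above all 0 h signals, and the log2 difference from 12 h was -1.69 ± 0.32 (adjusted p = 0.0247, limma; lost without either 12 h or either 3 h array). Spry1, an inhibitor of receptor tyrosine kinases, fell only after 12 h, by 1.06 ± 0.25. Its call was lost under 10 of the 12 left-out arrays. Among 28 immediate early factors and phosphatases, 4 (14.3%, against 2.21%) were lower: the nuclear receptor Nr4a3 (-1.91 ± 0.34), Ier3 (-1.34 ± 0.23), Klf6 (-0.92 ± 0.20) and Egr3. With a 12 h array dropped, 0 (experiment 1) and 1 (experiment 2) of the 28 were lower, and with the 24 h array of experiment 1 dropped, 14 were. Egr3 had 5.07 and 30.2 at 24 h, against 312 and 107 at 12 h, with 461 and 297 at 0 h. In both experiments the 24 h signal was the lowest of the 3.

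Most genes of the interferon response list were held, meaning that no difference between 24 h and 12 h was called. All 45 tested genes of that list were higher at 12 h than at 0 h and 44 were at 24 h. Over all 10985 genes tested, 1171 and 1259 were. In the list, a median of 96.7% of the log2 change at 12 h was still present at 24 h (range 30.3% to 132%). Only Ifih1 and Samd9l (4.44%, against 2.21% lower over all genes tested) were called lower at 24 h than at 12 h. Of the 45, 32 had a difference below 0, against 4813 of 10985 over all genes tested. At an unadjusted p under 0.05 in limma's fit, 8 were lower and 3 higher. The median difference was -0.13, and -0.29 without the 12 h array of experiment 1. Ifih1, the MDA5 sensor of double-stranded RNA, had 10993 and 10731 at 24 h, against 22717 and 20859 at 12 h, with 613 and 559 at 0 h. The 24 h arrays were below both 12 h arrays and many times above 0 h, and the log2 difference from 12 h was -1.002 ± 0.20 (adjusted p = 0.0294, limma; lost when any 1 of the 8 arrays of 0, 3, 6 and 12 h was left out, and kept without either 1 h or either 24 h array). Samd9l, an antiviral restriction factor, fell by 0.67 ± 0.16, and its call was lost under 10 of the 12 left-out arrays. The gene at the low end of the range was Eif2ak2, the double-stranded RNA-dependent kinase PKR, with 2048 and 602 at 24 h, against 3322 and 2002 at 12 h; its difference of -1.20 ± 0.34 was not called (adjusted p = 0.0803, limma), although 1 of its 3 probe sets was. Bst2, which tethers virions, had a difference of 0.56 ± 0.17 that was not called either.

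**Figure D4:**
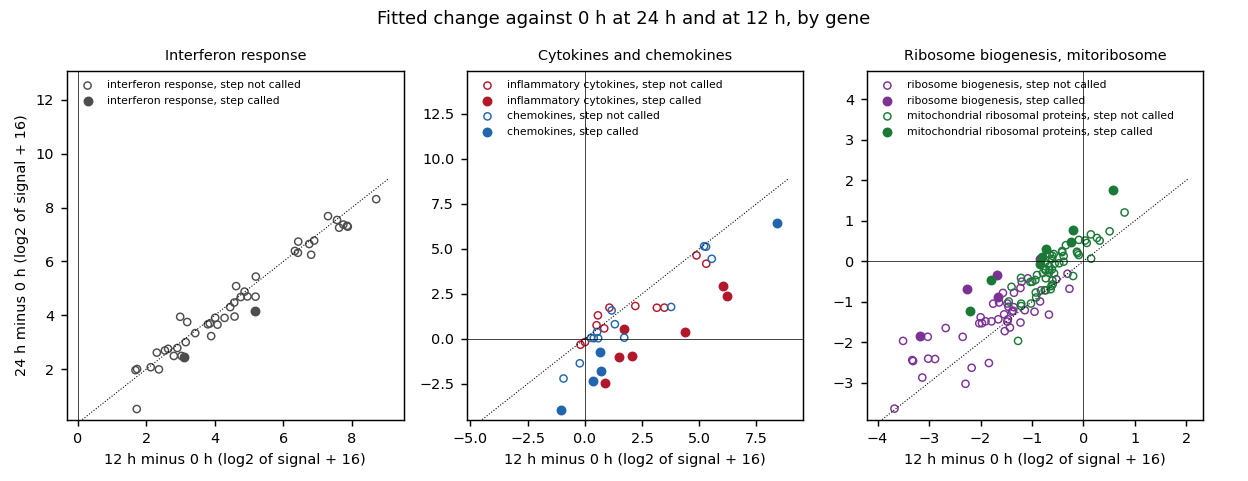
Fitted change from 0 h at 24 h (y axis) and at 12 h (x axis), in log2 of signal + 16, for tested genes of 5 lists; filled points were called between 24 h and 12 h, and the dotted line marks equal change. Interferon response genes lie close to the line, 32 of 45 below it. Cytokines and chemokines lie mostly below it, and ribosome biogenesis and mitochondrial ribosomal protein genes mostly above it.

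Antigen presentation genes were also mostly held, while some of their regulators were called lower. Of 17 MHC class I genes 14 were higher than 0 h at both times, against 1171 at 12 h and 1259 at 24 h of 10985 genes tested. The 14 had a median of 101% of the change left. Tap1, the peptide transporter, had 8912 and 6192 at 24 h, against 10107 and 6237 at 12 h, with 1015 and 764 at 0 h. Nlrc5, the class I transactivator, was the 1 gene of the list called (5.88% lower, against 2.21% over all genes tested). It had 2786 and 1936 at 24 h, against 6185 and 3240 at 12 h (-0.94 ± 0.21). H2-Q5, a class I-like gene of the Q region, went on rising after 12 h, with 3528 and 9774 at 24 h, against 841 and 2283 at 12 h, with 175 and 110.2 at 0 h. Class I genes are close copies of each other, so the probe set may read several of them. In the MHC class II list of 15, 2 genes were lower (13.3%, against 2.21% over all genes tested). Rfx5, a subunit of the RFX complex at class II promoters, fell by 1.27 ± 0.20 and Ciita, the class II transactivator, by 0.99 ± 0.23. The calls of Nlrc5 and Ciita were lost without any 1 of the 10 arrays of 0 to 12 h, Ciita also without the 24 h array of experiment 1, and that of H2-Q5 without any array but the 24 h array of experiment 1.

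Of 18 co-stimulation and maturation genes, 15 were higher at 12 h than at 0 h and 11 at 24 h. Over all 10985 genes tested, 1171 and 1259 were. At 24 h, 2 were lower than at 12 h (11.1%, against 2.21% over all genes tested). Cd86, a ligand of CD28 on T cells, had 13320 and 9143 at 24 h, against 11105 and 7668 at 12 h, with 1139 and 933 at 0 h, and was not called between the later times. Cd40 had 2886 and 3903 at 24 h, against 14593 and 6184 at 12 h; the difference of -1.50 ± 0.40 was not called (adjusted p = 0.0662, limma), although 1 of its 3 probe sets was. The called pair were the TNF family ligands Tnfsf4 (OX40 ligand, -1.34 ± 0.26) and Tnfsf9 (4-1BB ligand, -1.17 ± 0.27). Their calls were lost under 6 and 9 of the 12 left-out arrays. Il12b, a subunit of interleukin 12, Nos2, the inducible nitric oxide synthase, and Ccr7, the lymph node homing receptor, were named after their values were seen and had differences of -1.13 ± 0.62, -0.95 ± 0.54 and -0.88 ± 0.53, none of them called.

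Genes of chemokine receptors and migration split. Cxcr4, the receptor for CXCL12, rose only after 12 h, with 1034 and 1260 at 24 h, against 153 and 341 at 12 h, with 237 and 403 at 0 h. Both 24 h arrays lay above all arrays of the other 2 times, and the log2 difference from 12 h was 2.24 ± 0.31 (adjusted p = 0.00805, limma; lost without the 12 h array of experiment 1). Ccr2, the receptor by which monocytes leave marrow and follow CCL2, went on falling, with 298 and 165 at 24 h, against 1144 and 674 at 12 h, with 4353 and 2885 at 0 h. The 3 times did not overlap, the difference of -1.91 ± 0.18 held under every left-out array (adjusted p = 0.00256, limma), and all 4 of its probe sets were called. Marcksl1 (-1.73 ± 0.21), the integrin subunit Itga4 (-1.30 ± 0.24) and the hyaluronan receptor Cd44 (-0.87 ± 0.20) were lower as well. The call of Cd44 was lost under 11 of the 12 left-out arrays. In all, 4 of 18 genes (22.2%, against 2.21% over all genes tested) fell and 1 rose, with 1 lower once the 12 h array of experiment 1 was dropped.

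Among the falls that recovered, genes of ribosomes gave the most calls of any list. Of 61 mitochondrial ribosomal protein genes, 8 (13.1%, against 2.57% higher over all genes tested) were higher at 24 h than at 12 h. None was lower, and 56 had a difference above 0, against 6172 of 10985 over all genes tested. The median of the 61 was 0.47, with 0.36 in experiment 1 and 0.57 in experiment 2. At 12 h, 33 of the 61 were below 0 h, and at 24 h 14 were, against 2263 and 1887 of 10985 genes tested. The 33 kept a median of 45.4% of their change. Of the 33, 5 were called higher at 24 h, against 149 of the 2263 fallen genes over all genes tested. Mrps27 had 241 and 214 at 24 h, against 72.8 and 89.0 at 12 h, with 289 and 352 at 0 h. Both 24 h arrays stood well above both 12 h arrays and below both 0 h arrays, and the log2 difference was 1.33 ± 0.23 (adjusted p = 0.0199, limma). Mrpl9 and Mrps18b rose by 1.02 ± 0.20 and 0.99 ± 0.20, whereas Mrpl1 (1.20 ± 0.22) and Mrpl45 (0.97 ± 0.17) were not below 0 h at 12 h and rose anew. Without either 12 h array, none of the 61 was called, while the list's median was 0.47 and 0.42 in those fits.

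Of 50 genes of cytosolic ribosome biogenesis, 46 were below 0 h at 12 h and 43 at 24 h, against 2263 and 1887 of 10985 genes tested. The medians of the 50 were -1.60 at 12 h and -1.35 at 24 h, so most of that fall stayed. Of the 50, 5 were called (10%, against 2.57% higher over all genes tested), all higher at 24 h than at 12 h. All 5 were among the 46 fallen at 12 h, against 149 of the 2263 fallen genes over all genes tested. They were Nop14 and Imp3 of the small-subunit processome, Ppan, needed for large-subunit maturation, Polr1c, a shared subunit of RNA polymerases I and III, and Gnl3, encoding nucleostemin. Gnl3 had 799 and 1825 at 24 h, against 481 and 327 at 12 h, with 2111 and 1843 at 0 h. It returned to its 0 h level in experiment 2 and by far less in experiment 1, and the log2 difference was 1.57 ± 0.33 (adjusted p = 0.0321, limma; lost when any 1 of the 10 arrays of 0 to 12 h was left out). Ppan had 109 and 95.5 at 24 h, against 31.9 and 29.8 at 12 h, with 462 and 362 at 0 h, and was still below 0 h by a log2 difference of -1.85. None of the 5 was called without either 12 h array. The 39 cytosolic ribosomal protein genes had 0 calls in limma's fit, also at an unadjusted p under 0.05, and a median of -0.36 in experiment 1 and 0.27 in experiment 2.

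Translation and protein turnover gave few calls. Of 32 aminoacyl-tRNA synthetase genes, only Eprs (3.1%, against 2.57% over all genes tested) was higher at 24 h than at 12 h (1.07 ± 0.24). Its call was lost under 10 of the 12 left-out arrays. Of the same 32, 23 were below 0 h at 12 h and 13 at 24 h, against 2263 and 1887 of 10985 genes tested. Eif4a2, an RNA helicase of translation initiation, had 7504 and 8897 at 24 h, against 3642 and 4636 at 12 h, with 5903 and 6790 at 0 h, and rose by 0.99 ± 0.14. Of 33 proteasome genes, 2 were higher (6.06%, against 2.57% over all genes tested). These were Psmd1 and Psmd4, subunits of the regulatory particle, which rose by 0.74 ± 0.14 and 0.73 ± 0.16. Their calls were lost under 8 and 10 of the 12 left-out arrays. The 34 DNA replication genes had 0 calls in limma's fit (3 higher and 4 lower at an unadjusted p under 0.05). Of these, 23 were below 0 h at 12 h and 24 at 24 h, against 2263 and 1887 of 10985 genes tested.

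Recovering falls named by the size of their change or by other lists follow. Lpin1, a phosphatidate phosphatase and coregulator of fatty acid genes, had 845 and 796 at 24 h, against 157 and 386 at 12 h, with 842 and 844 at 0 h, so that both experiments ended at their starting level (1.67 ± 0.30, adjusted p = 0.0224, limma). Umps, which completes pyrimidine synthesis, had 365 and 400.2 at 24 h, against 40.7 and 152 at 12 h, with 589 and 707 at 0 h. Arg1, arginase 1, differed between the mice at every time, with 291 and 2014 at 24 h, against 28.8 and 1288 at 12 h, with 267 and 2307 at 0 h. Its groups overlapped across experiments although each experiment rose, by 2.77 and 0.64 on the log2 scale, and its call (adjusted p = 0.0470, limma) was lost under 10 of the 12 left-out arrays. St6gal1, a sialyltransferase, and Gadd45a, a p53 target, rose by 2.25 ± 0.50 and 1.38 ± 0.31. Their calls were lost under 10 and 11 of the 12 left-out arrays. The largest recovery was that of Zap70, a kinase known from T cell receptor signaling, with 709 and 729.7 at 24 h, against 51.8 and 67.0 at 12 h, with 503 and 365 at 0 h. Its 1 h signals, 88.3 and 72.9, were also low, and its call was lost without either 12 h array. The 7 T and NK cell markers on the array summed to 171 and 263 at 24 h, against 288 and 283 at 12 h.

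The E-box letters CACGTG, read by MYC, USF and CLOCK family factors, were in 27 of 165 promoters of recovering falls (16.4%), in 12.8% of 2138 promoters of held falls and in 9.91% of promoters of all genes tested. They are shown in capitals in the RefSeq promoters of Timm9 (chr12:71136626-71136925, minus strand), which encodes a chaperone of mitochondrial protein import and holds the letters at 2 places, and of Lonp1 (chr17:56626854-56627153, minus strand), the mitochondrial matrix protease. Both genes were chosen after their values were seen.
Timm9: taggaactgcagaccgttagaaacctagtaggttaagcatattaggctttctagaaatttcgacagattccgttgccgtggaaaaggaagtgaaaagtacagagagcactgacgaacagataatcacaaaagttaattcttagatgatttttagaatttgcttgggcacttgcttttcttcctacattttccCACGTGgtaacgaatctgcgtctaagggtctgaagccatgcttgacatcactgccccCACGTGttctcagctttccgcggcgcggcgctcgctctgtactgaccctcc
Lonp1: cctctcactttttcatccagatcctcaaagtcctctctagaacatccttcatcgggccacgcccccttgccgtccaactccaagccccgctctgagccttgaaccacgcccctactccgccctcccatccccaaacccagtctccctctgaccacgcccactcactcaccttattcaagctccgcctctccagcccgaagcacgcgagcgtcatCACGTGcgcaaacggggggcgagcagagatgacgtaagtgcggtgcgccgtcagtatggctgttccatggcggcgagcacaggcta
Lonp1 had 1521 and 1311 at 24 h, against 463 and 612 at 12 h, with 819.9 and 1033 at 0 h, and rose by 1.38 ± 0.23. Both 24 h arrays were above all arrays of the other 2 times, and the call was lost without either 12 h array. Timm9 had 133 and 113 at 24 h, against 61.9 and 12.1 at 12 h, with 328 and 305 at 0 h, and its call (adjusted p = 0.0470, limma) was lost without any array but the 24 h array of experiment 1.

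The rises that started only after 12 h included the following genes. Mettl7a1, a lipid droplet-associated methyltransferase-like gene, had 2715 and 3184 at 24 h, against 386 and 929 at 12 h, with 613 and 851 at 0 h, and its rise of 2.26 ± 0.25 held under every left-out array (adjusted p = 0.00434, limma). Fbxo32, encoding the ubiquitin ligase atrogin-1, had 1636 and 1094 at 24 h, against 300.5 and 293 at 12 h, with 373 and 217 at 0 h. In both genes the 24 h arrays stood clear of all others. Tsc22d3, encoding GILZ, a FOXO- and glucocorticoid-responsive inhibitor of inflammation, had 3992 and 3793 at 24 h, against 767 and 1777 at 12 h (1.72 ± 0.30), and Sirt3, a mitochondrial deacetylase, had 479.7 and 649 at 24 h, against 151 and 164 at 12 h (1.73 ± 0.24). Eif4ebp1, the inhibitor of cap-dependent translation under mTOR control, had 5956 and 12168 at 24 h, against 1792 and 5784 at 12 h, with 3458 and 5377 at 0 h. Each experiment rose, by 1.72 and 1.07 on the log2 scale, while the lower 24 h array and the higher 12 h array were nearly equal.

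Of 21 autophagy genes, 2 (9.52%, against 2.57% over all genes tested) were higher at 24 h. None was lower, and 17 had a difference above 0, against 6172 of 10985 over all genes tested. The median of the 21 was 0.41, with 0.56 in experiment 1 and 0.20 in experiment 2. Gabarapl1, which is conjugated to autophagosome membranes, had 4843 and 7784 at 24 h, against 2241 and 4188 at 12 h, and Atg12, part of the conjugation machinery, had 2199 and 2225 at 24 h, against 907 and 1221 at 12 h. The rises were 1.00 ± 0.16 and 1.06 ± 0.19, the first lost without the 12 h array of experiment 1 and the second without either 12 h array. In the list of 22 ATF4 and CHOP stress genes, Ddit3, encoding CHOP, had begun to rise by 12 h and went further, with 5722 and 8416 at 24 h, against 2172 and 2768 at 12 h, with 546 and 924 at 0 h. No array of one time overlapped with another, and the difference was 1.49 ± 0.22 (adjusted p = 0.0106, limma). Atf4 itself had 7355 and 10242 at 24 h, against 5156 and 4164 at 12 h (0.90 ± 0.21; adjusted p = 0.0426, limma), and Psat1, a serine synthesis enzyme that ATF4 induces, went the other way, falling further by 0.70 ± 0.16. The calls of Atf4 and Psat1 were lost under 11 and 10 of the 12 left-out arrays, and that of Ddit3 without either 12 h array. The list's median was 0.25.

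Other rises that went further after 12 h were Itpr2, an inositol trisphosphate receptor, Orm1, an acute phase protein, Acp5, the tartrate-resistant acid phosphatase, Hilpda, a lipid droplet protein that blocks lipolysis, and Grina, a regulator of calcium stores. The calls of Orm1, Acp5 and Hilpda were lost under 6, 10 and 8 of the 12 left-out arrays. Itpr2 had 3392 and 3675 at 24 h, against 647 and 1174 at 12 h, with 343 and 344 at 0 h, but only 1 of its 5 probe sets was called. Grina had 24440 and 26012 at 24 h, against 13174 and 13366 at 12 h, with 7377 and 7270 at 0 h, close in the paired mice at every time, and both of its probe sets were called. Falls that went further included Mamdc2, with 29.6 and 59.9 at 24 h, against 372 and 311 at 12 h, with 778 and 930.3 at 0 h, the actin crosslinker Flna (-1.27 ± 0.25) and the transcription factor Klf7 (-1.30 ± 0.22).

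Among the falls that began only after 12 h, Tlr2, the receptor for bacterial lipoproteins, had 2964 and 3486 at 24 h, against 10472 and 7512 at 12 h, with 7131 and 7101 at 0 h. The 24 h arrays lay below all others of these times, and the log2 difference was -1.46 ± 0.21 (adjusted p = 0.00969, limma; lost without the 12 h array of experiment 1). C5ar1, the receptor of complement fragment C5a, had 34.6 and 32.7 at 24 h, against 329 and 93.0 at 12 h, with 196 and 221 at 0 h, low signals of which 1 of 2 probe sets was called. Map3k5 (ASK1), a stress kinase upstream of JNK and p38, fell by 2.40 ± 0.34, and Il4i1, a secreted amino acid oxidase, by 2.07 ± 0.45. The calls of C5ar1 and Il4i1 were each lost under 9 of the 12 left-out arrays. Tlr2 and C5ar1 were the 2 called of 30 phagocytic and pattern receptors (6.67%, against 2.21% over all genes tested), and neither was called without the 12 h array of experiment 1. Fst, encoding the activin antagonist follistatin, had 39.1 and 103 at 24 h, against 1073 and 349.9 at 12 h, and Mitf, a driver of lysosomal and lineage genes, had 4820 and 2683 at 24 h, against 9744 and 5181 at 12 h, and both genes lay outside the classes above. Of the waning rises outside the lists of signaling, Cflar, an inhibitor of caspase 8, fell by 1.11 ± 0.17 and the cyclin Ccnd1 by 0.72 ± 0.17. Tcf4, a transcription factor known from plasmacytoid DC, fell by 1.62 ± 0.23. The calls of Mitf and Ccnd1 were lost under 9 and 10 of the 12 left-out arrays. Over the 5 plasmacytoid DC markers the summed signal was 19464 and 30696 at 24 h, against 13917 and 23759 at 12 h, nearly all of it Bst2 (18640 and 30143 at 24 h, against 11708 and 22150 at 12 h), and Siglech lay between 14.9 and 19.3 in the 4 arrays.

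**Figure D5:**
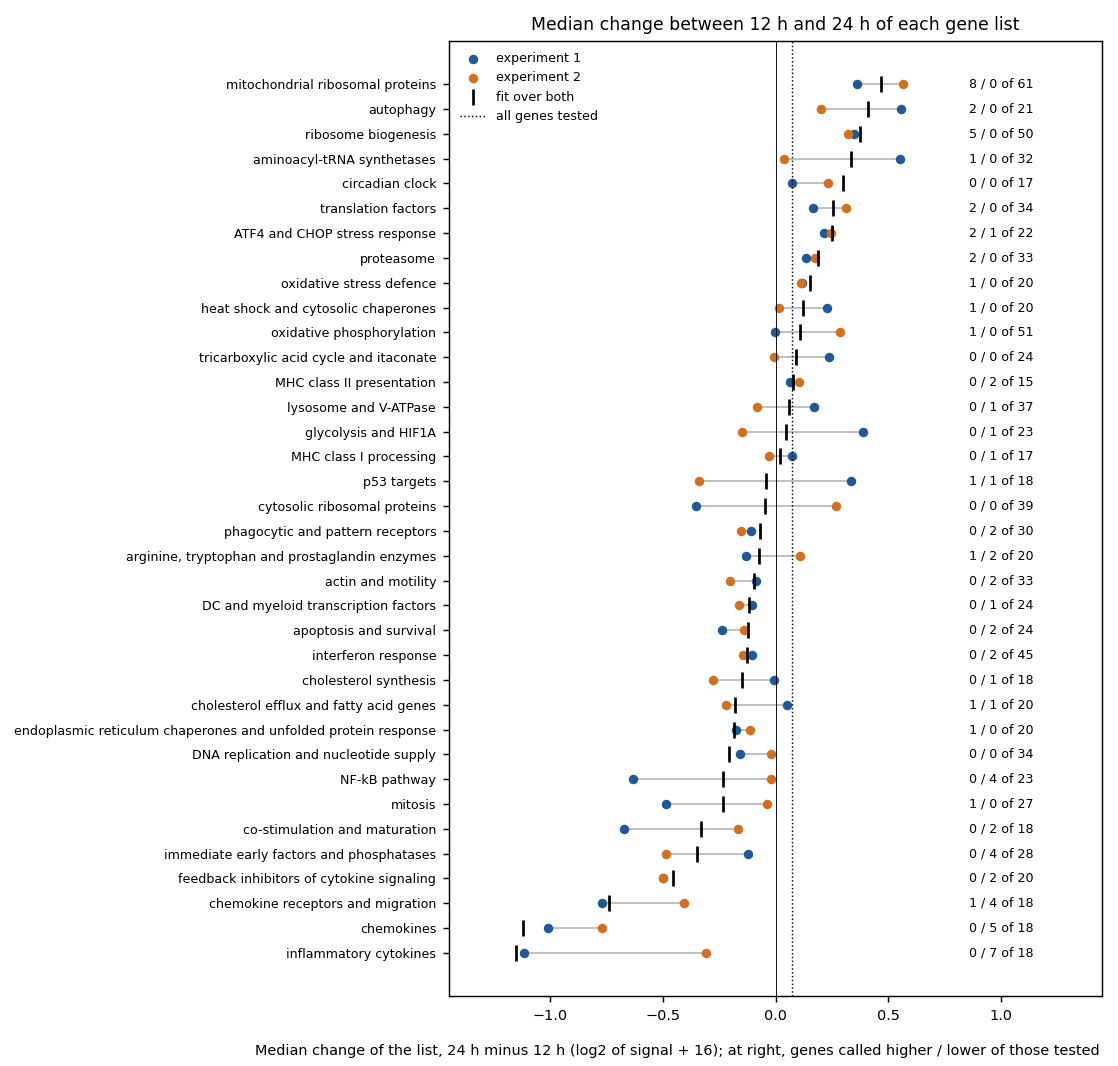
Median difference between 24 h and 12 h (log2 of signal + 16) over the tested genes of each list, in experiment 1, in experiment 2 and in the fit over both, with the counts called higher and lower; the median of the fitted differences need not lie between those of the experiments. Inflammatory cytokines and chemokines have the lowest medians of the fit (-1.15 and -1.12; -0.36 and -0.93 without the 24 h array of experiment 1, where immediate early factors are at -0.86) and mitochondrial ribosomal proteins and autophagy the highest (0.47 and 0.41), against 0.07 over all genes.

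Near misses are given for genes of the same lists. Cxcl1, a neutrophil attractant, had 223 and 217 at 24 h, against 752 and 338 at 12 h (-1.14 ± 0.29, adjusted p = 0.0541, limma). Gadd45g had 1487 and 4931 at 24 h, against 668 and 850.0 at 12 h (1.83 ± 0.48, adjusted p = 0.0617, limma). Osm, oncostatin M, had 842 and 899 at 24 h, against 502 and 534 at 12 h (0.73 ± 0.20, adjusted p = 0.0739, limma). In all 3 genes both 24 h arrays lay on one side of both 12 h arrays. Of the interferon response genes, Ifi47 and Parp14 had differences of -0.62 ± 0.17 and -0.67 ± 0.20, which were not called. The 17 circadian clock genes had 0 calls in limma's fit (4 higher and 1 lower at an unadjusted p under 0.05) and a median of 0.30.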

How the data were processed

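Total RNA from 12 cultures, 1 per time in each of 2 experiments, was hybridized to Affymetrix Mouse 430 2.0 arrays. The authors deposited MAS5.0 signal intensity values on a linear scale, scaled so that each array's mean, without the top and bottom 2%, was 500. Image files and detection calls were not used here. Of 45101 probe sets, 64 controls were left out, and 34945 of the remaining 45037 had 1 gene symbol, 932 several and 9160 none.

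The log2 of each signal plus 16 was fitted in limma 3.58.1 (R 4.3.3) with terms for time and experiment on all 12 arrays, and contrasts were moderated by empirical Bayes with an intensity trend (5 residual and 5.24 prior degrees of freedom). Testing was limited to the brighter part, 22519 probe sets whose mean reached the median of all means, with Benjamini-Hochberg adjustment over all of them. A called change had an adjusted p under 0.05. The experiment pairs arrays because the methods describe experiments run apart. Deviations of the arrays of one experiment from the means of their times were correlated over the 15 comparisons of one time with another (median 0.573). Comparisons of 24 h with another time had the lowest correlations, 0.256 to 0.460, the last being that of 24 and 12 h. Those among 0 to 12 h had 0.529 to 0.660. The deviations at 24 h were thus the least shared with other times. Whether the common estimate of spread holds at 24 h was not tested. The number of arrays limits the precision, and each fold change is on the log2(signal + 16) scale, which understates changes of low signals.

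Each gene was represented by its tested single-symbol probe set of highest mean signal. Named genes were the 12 largest changes in each direction and the 8 largest of each class with a mean signal of at least 100 at the higher time, up to 5 genes of each list by p, and genes named for late changes in earlier accounts. Members, the 36 lists and 9 marker lists (1072 of 1172 symbols on the array) and tests were chosen with earlier results of these data known. Lists were described by counts and medians, without a set test. Alternatives were the pseudocount, the filter, the scaling, the trend, the block, the arrays fitted, a 2-fold limit and each array left out. Promoters came from RefSeq (GRCm38.p6). Scripts were tested on simulated data and used Python 3.11.15, numpy 2.4.6, pandas 2.3.3 and matplotlib 3.10.9.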

Additional observations from a re-analysis of the deposited data

How the results depend on the processing

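Counts are of probe sets higher at 24 h than at 12 h, lower, waning rises, recovering falls, new rises and new falls, which were 421, 507, 212, 223, 114 and 188. With no replicate block, the experiments being unpaired, all 6 counts were 0. Fitting the 4 arrays of 12 and 24 h alone gave 96 higher and 214 lower, with no classes. With no filter the counts were 199, 286, 133, 102, 56 and 97, and with no intensity trend 93, 142, 61, 53, 29 and 57. Median centring gave 286 lower, 137 waning rises and 92 new falls. A 2-fold limit gave 256 higher, 115 waning rises, 126 recovering falls, 51 new rises and 121 new falls. Calling the earlier change at 6 h gave 136 waning rises and 55 recovering falls. With 1 array left out, the ranges were 6 to 1889 higher, 15 to 2429 lower, 6 to 585 waning rises, 4 to 1172 recovering falls, 2 to 577 new rises and 4 to 931 new falls, lowest without the 12 h array of experiment 1 and highest without a 24 h array, where the lone array is assumed to vary like the other times. All other counts under these settings, a pseudocount of 4 or 64, a filter at the 75th percentile, quantile normalization and an earlier change under 0.5 stayed within 1.5 times. The median difference over all tested probe sets was 0.03, and 0.07 after median centring. No call reversed. The causes were not tested. With 2 arrays a time, signals near 16 are poorly resolved. So are many differences well above the median SE of 0.29 log2 units: those of Cd40 (-1.50) and Eif2ak2 (-1.2) were not called. An uncalled difference does not show that nothing changed.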

Other observations

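Values are given for 4 non-coding host genes of small nucleolar RNAs, which guide ribosomal RNA modification. The 4 were chosen after their values were seen, because they were higher at 24 h than at 12 h, and say nothing about such genes as a group. Snhg1 had signals of 551 and 864 at 24 h (experiments 1 and 2), against 293 and 147 at 12 h, with 2061 and 1403 at 0 h. Snhg12 had 375 and 473 at 24 h, against 165 and 104 at 12 h, with 399.6 and 304 at 0 h. Both 24 h arrays lay above both 12 h arrays in each gene, and the log2 differences were 1.66 ± 0.32 and 1.57 ± 0.30 (SE, n = 2 experiments). Snhg6 and Snhg8 rose by 1.08 ± 0.19 and 1.05 ± 0.25. The calls of Snhg6, Snhg8, Snhg12 and Snhg1 were lost without either 12 h array, those of Snhg12 also without either 3 h array, and those of Snhg1 and Snhg8 under 7 and 11 of the 12 left-out arrays.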
